A study of Mus musculus with 12 samples.

Results

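The 34 genes described here encode proteins of the synaptic vesicle and of the machinery that releases neurotransmitter. They were taken by gene symbol from a deposited table of 24060 genes, with Snap25, Syt1 and Syn1 as their markers. All 34 were found in the table, and all 34 had enough counts to be among the 14354 genes tested. RNA came from the white matter of the brain of Tie2-Cre:Rpl22-HA mice, also called Tie2-Cre:RiboTag. All animals of the study were male by its methods, and the age of these mice is not given in the sources used here. All 12 libraries share this genotype, and the groups differ in diet and in fraction. Animals on the control-fat diet (CFD), with fat giving 10% of the kcal, were 489, 555 and 556. Animals on the high-fat diet (HFD), with fat giving 60%, were 516, 517 and 676. Each animal gave a library of its unselected white matter RNA (input) and a library of the ribosomes pulled down through the hemagglutinin (HA) tag (IP), which makes 4 groups of 3 libraries. The study's methods and its list of resources name different Tie2-Cre strains. Cre under the Tie2 (Tek) promoter puts the tag on the ribosomal protein Rpl22 of the endothelial lineage. As background, this promoter is also active in part of the blood lineage, and no library from mice without Cre was analysed here, so that RNA carried along without the tag has no background value.

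A nerve terminal stores transmitter in vesicles, which transporters fill and which synapsins tether to one another. Docked vesicles fuse with the membrane when the SNARE proteins Snap25, syntaxin and synaptobrevin (Vamp) zip together, a step that calcium triggers through synaptotagmins. Large scaffold proteins, Bassoon (Bsn) and Piccolo (Pclo) among them, mark the active zone where fusion takes place, and dynamin retrieves the membrane afterwards. Most of these transcripts are made and kept in neuron cell bodies, which lie in grey matter, while white matter consists mostly of axons and glia. Some transcripts are also found in axons.

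Library totals ranged from 19567186 to 33660708 counts. The 34 genes held between 1.48% and 2.84% of the counts of a library, with 95% Wilson intervals of 1.479% to 1.488% for the lowest and 2.832% to 2.845% for the highest. These intervals cover counting error only. The 3 markers were present in every library. Snap25 had from 49767 to 298568 counts and ranked between place 2 and place 17 among all genes, and the lowest count of any of the 34 genes was 23, for Slc17a6. The endothelial markers stood far lower. The summed level of 10 endothelial genes was 3.87 to 213 CPM (counts in 1e6 of the scaled library total) in IP and 10.2 to 41.3 CPM in input. The highest sum was in the IP of animal 556, where Egfl7 alone had 3650 counts, and the next highest IP sum was 67.1 CPM. Between 1 and 4 of the 10 were at 0 counts in an IP library and 0 to 5 in an input library, and Tek itself was at 0 in 3 of 6 IP and 2 of 6 input libraries. The summed level of the 34 genes was 21395 to 27896 CPM in IP. By these markers the pulldown did not stand out as endothelial, so the fraction is called IP throughout. The sum of the endothelial markers was above input in 3 of 6 animals, and 0 of the 9 tested were called by edgeR. The paper, with its own marker genes, reports that endothelial transcripts were enriched in this pulldown relative to markers of other perivascular cells. That measure was not repeated here. Xist was at 0 counts in 9 libraries and at most 133 in the others, in the input of animal 676. Between 6.34% and 42.3% of a library's counts were of Rn45s, the precursor of ribosomal RNA. This share was 38.7% to 42.3% in CFD IP, 17.1% to 19.1% in HFD IP and at most 14.2% in input.

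Libraries were scaled by TMM, which sets the bulk of the genes equal between libraries, so every direction given below is relative to the other genes. Without a scaling factor the median of all genes tested moved from -0.03 to -0.64 on the log2 scale between IP and input. The position of the 34 genes relative to that median hardly moved, with 29 of 34 above it with RLE scaling and 28 of 34 without a scaling factor. In bulk RNA, fewer cells or terminals of a type and less RNA in each cannot be told apart.

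Per kilobase of gene length, Snap25 stood highest of the 34 genes in each of the 4 groups. Its level was 3715 ± 1011 CPM per kb in CFD input, 2029 ± 737 in CFD IP, 3391 ± 851 in HFD input and 3003 ± 275 in HFD IP (SD, n = 3 each). Vamp2, the synaptobrevin of most forebrain vesicles, came next in each group, at 511 ± 44.4 CPM per kb in CFD input and 609.7 ± 171 in CFD IP. Snap25 and Vamp2 did not overlap in any group. The places below were less clearly set. In CFD input Syp, Nsf and Syn1 followed at 338 ± 91.4, 271 ± 1.52 and 269.7 ± 32.0 CPM per kb, which lie within their spread. Synaptophysin (Syp) is an abundant membrane protein of the vesicle, and Nsf is the ATPase that takes used SNARE complexes apart. The lowest place in each group was taken by Slc17a6 or Syt2. Slc17a6, which encodes the glutamate transporter VGLUT2 of subcortical neurons, stood at 6.36 ± 1.86 CPM per kb in CFD input, against 124 for Slc17a7, the VGLUT1 of cortical neurons. The median place of the 34 genes among all genes tested was between percentile 95.2 and percentile 96.7 per kb in the 4 groups.

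**Figure D1:**
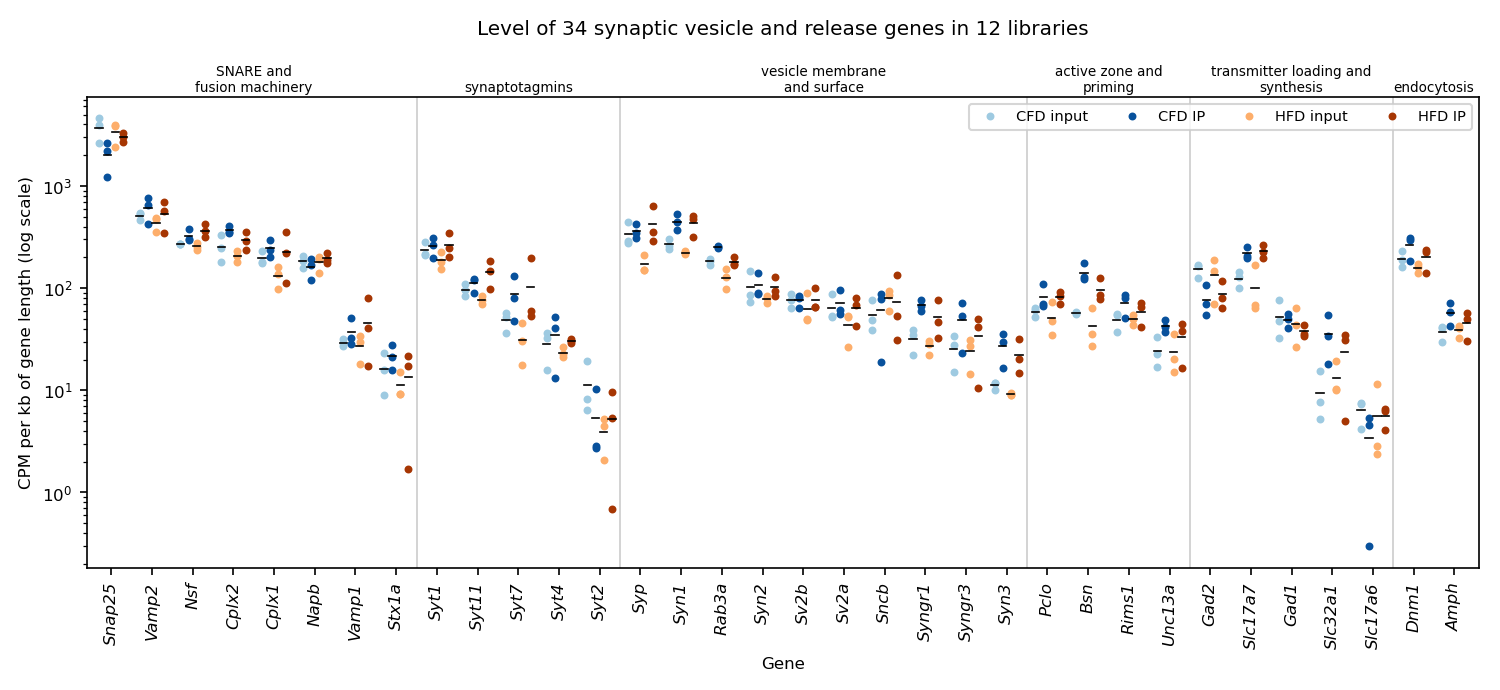
Level of each of the 34 genes in the 12 libraries, in CPM per kb of gene length on a log axis. Points are libraries, black bars are group means, and colours give the 4 groups. Genes are ordered within their role by the CFD input mean. Snap25 lies above all others in each group, and Slc17a6 or Syt2 lies lowest.

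Within each group, the typical spread of the 34 genes between animals was below that of all genes tested. The median SD of log2 CPM over the 34 was 0.30 in CFD input, 0.39 in CFD IP, 0.36 in HFD input and 0.43 in HFD IP. Over all genes tested it was 0.81, 1.10, 0.62 and 1.10. Over the 6101 genes at least as abundant as the least abundant of the 34, it was 0.45, 0.66, 0.38 and 0.60. These genes were not matched in level to the 34. Rab3a, the small GTPase of the vesicle surface, varied little, at 371, 357 and 374 CPM in CFD IP. Slc17a6 varied most, at 19.8, 23.0 and 1.29 CPM in the same libraries.

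The comparison of IP with input over both diets asks which transcripts the pulldown collected above their level in the whole sample. With edgeR's quasi-likelihood test, 6 of the 34 genes rose in IP at an adjusted p under 0.1 and 0 fell, against 2.35% of all genes called in either direction. They were Bsn, Syn3, Syn1, Slc17a7, Syngr1 and Syt7, with folds from 1.81 to 2.43. At an unadjusted p under 0.05 there were 15 higher and 2 lower, against 13.9% of all genes. The median log2 fold change of the 34 was 0.41, with 28 of 34 above 0, against -0.03 over all genes tested. Without a scaling factor 10 of 34 lay above 0, Bsn alone was called higher, and Snap25, Gad1, Gad2 and Napb were called lower, among 1139 calls over all genes. The log2 fold changes of the 6 genes named first stayed above 0 under that setting, from 0.22 for Syn1 to 0.62 for Syn3 and Bsn. With the animal as a replicate block, as each mouse gave both fractions, 11 were called, 9 higher and 2 lower, and 451 of all 14354 genes. Pclo, Syp and Cplx2 were then added above, and Gad2 (adjusted p = 0.0236) and Snap25 (adjusted p = 0.0367) below, in edgeR's test. The count changed with the animal left out, for the 34 genes and for all genes tested. It was 0 without animal 516 (7 of all 14940 genes), 1 without animal 517 (28 of 14982) and 1 without animal 556 (24 of 15000). It was 3 without animal 555 (180 of 15081), 4 without animal 489 (97 of 14949) and 10 without animal 676 (430 of 14449).

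Bsn encodes Bassoon, a scaffold of the active zone, and lies on chromosome 9 at 108096022 to 108190419 of GRCm38 (mm10). Its input level was 895, 899.8 and 931 CPM in animals 489, 555 and 556, and 430.5, 568 and 1028 CPM in animals 516, 517 and 676. Its IP level was 2782, 1945 and 2059 CPM in CFD and 2002, 1255 and 1365 CPM in HFD. Every IP library lay above every input library. The fitted change was 1.25 on the log2 scale (SE 0.21, edgeR adjusted p = 0.00895), place 8 among all genes by p. The smallest ratio was that of animal 676, at 0.41 on the log2 scale, and the largest that of animal 516, at 2.22.

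The synapsins coat the vesicle surface and hold vesicles in the reserve pool. Syn1, on chromosome X at 20860511 to 20920918, was at 824, 970.2 and 775 CPM in CFD input and at 1179.5, 1406 and 1686 CPM in CFD IP. In HFD it was at 709.7, 725 and 679 CPM in input and at 1630.4, 1499 and 1015 CPM in IP. Again no IP library overlapped the inputs, and the log2 fold change was 0.85 (SE 0.18, edgeR adjusted p = 0.0264). Syn3, on chromosome 10 at 86048746 to 86498926, went from 98.9 ± 8.79 to 238 ± 84.2 CPM in CFD and from 80.2 ± 2.61 to 196 ± 76.3 CPM in HFD (SD, n = 3 each). Its IP libraries held 259, 146 and 310.3 CPM in CFD and 279, 177 and 130.0 CPM in HFD, all above its highest input value of 104 CPM. The log2 fold change was 1.28 (SE 0.26, edgeR adjusted p = 0.023). In the RefSeq annotation 5.66% of the exon bases of Syn3 are shared with Fbxo7 and Gm51812, and whether the counting used strand is not given in the sources used here. Syn2, the remaining synapsin, had a log2 fold change of 0.21 with an edgeR adjusted p of 0.74, and -0.39 without a scaling factor.

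Slc17a7 encodes VGLUT1, which loads glutamate into vesicles, and lies on chromosome 7 at 45163921 to 45176139. It was at 423, 294 and 376 CPM in CFD input and at 203, 188 and 491 CPM in HFD input. The IP libraries held 579.8, 735 and 610.2 CPM in CFD and 781, 664 and 574 CPM in HFD, with no overlap with the inputs. The log2 fold change was 1.01 (SE 0.23, edgeR adjusted p = 0.0444). Syngr1 encodes synaptogyrin, a vesicle membrane protein, and lies on chromosome 15 at 80091334 to 80119501. It went from 134 ± 36.6 to 285 ± 37 CPM in CFD and from 113 ± 17.2 to 217 ± 94.5 CPM in HFD (SD, n = 3 each). The IP of animal 676, at 135 CPM, fell among the inputs, of which the highest was 164 CPM. The log2 fold change was 1.02 (SE 0.25, edgeR adjusted p = 0.0553).

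Syt7, a slow calcium sensor with a role in asynchronous release, lies on chromosome 19 at 10388802 to 10453181. It was at 249.6, 393 and 356 CPM in CFD input and at 324, 552 and 901 CPM in CFD IP. In HFD it was at 121, 207 and 309 CPM in input and at 1342, 406 and 362 CPM in IP. The groups overlapped, and the IP of animal 516 stood alone at the top. The log2 fold change was 1.28 (SE 0.32, edgeR adjusted p = 0.0602). Without animal 516 it was 0.70 with an adjusted p of 0.416. The 6 genes kept their calls with DESeq2, the replicate block, RLE scaling, the likelihood ratio test and no filter, and without Rn45s and Lars2. Syt7 and Syngr1 lost theirs at an adjusted p under 0.05.

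**Figure D2:**
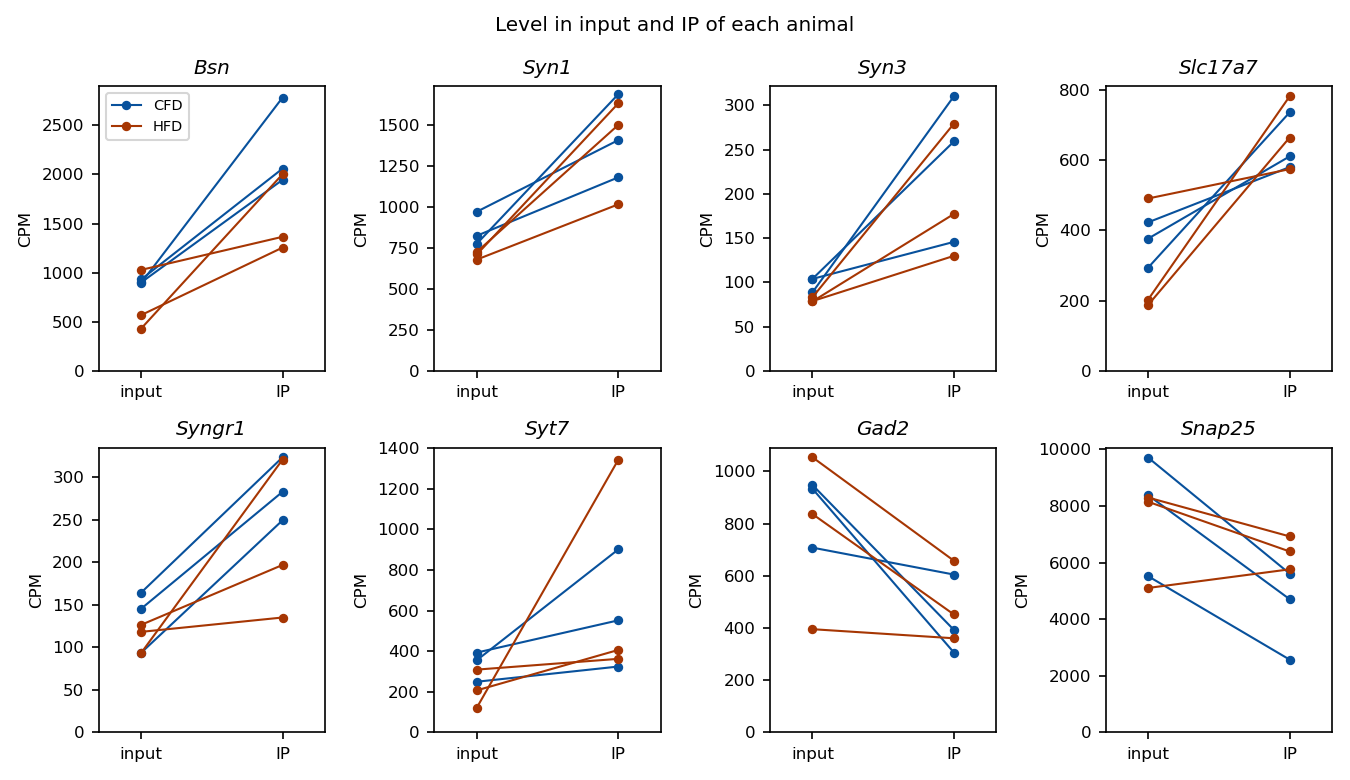
CPM in input and IP of each animal for 8 genes, on axes that start at 0, with a line joining the libraries of each animal. The upper row and the first 2 panels of the lower row show the 6 genes called, whose level was higher in IP in 6 of 6 animals. Gad2 was lower in IP in 6 of 6 animals and Snap25 in 5 of 6. Neither was called in the quasi-likelihood fit that gave the 6 calls, and both were called lower under some other settings.

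Promoter windows from the RefSeq promoter table of GRCm38.p6 were read for the called genes. Of the 34 genes, 28 had at least 1 window, 36 windows in all, and Syt7 and Syn3 had none. The bases before the start of Bsn, Syn1, Slc17a7 and Syngr1 are shown 5′ to 3′ on the strand of the gene, with capitals at matches to the motifs named below. For Bsn, 36 bases that belong to an annotated exon were left out. Positions are chr9:108190420-108190633 (minus strand), chrX:20920919-20921168 (minus), chr7:45163671-45163920 (plus) and chr15:80091084-80091333 (plus).
Bsn: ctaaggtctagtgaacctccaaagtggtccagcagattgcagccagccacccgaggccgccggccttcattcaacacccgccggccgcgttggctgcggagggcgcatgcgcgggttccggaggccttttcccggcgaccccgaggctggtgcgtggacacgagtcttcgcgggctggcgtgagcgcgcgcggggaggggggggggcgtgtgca
Syn1: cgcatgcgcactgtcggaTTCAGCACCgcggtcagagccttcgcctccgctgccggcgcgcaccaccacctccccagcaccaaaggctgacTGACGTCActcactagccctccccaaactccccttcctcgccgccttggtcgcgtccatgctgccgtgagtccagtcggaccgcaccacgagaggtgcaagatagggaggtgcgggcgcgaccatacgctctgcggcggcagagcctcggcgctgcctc
Slc17a7: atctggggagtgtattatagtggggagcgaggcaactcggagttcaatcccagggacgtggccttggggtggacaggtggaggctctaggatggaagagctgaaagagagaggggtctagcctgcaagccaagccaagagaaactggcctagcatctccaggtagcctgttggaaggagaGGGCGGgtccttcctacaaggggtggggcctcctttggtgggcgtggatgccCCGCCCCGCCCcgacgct
Syngr1: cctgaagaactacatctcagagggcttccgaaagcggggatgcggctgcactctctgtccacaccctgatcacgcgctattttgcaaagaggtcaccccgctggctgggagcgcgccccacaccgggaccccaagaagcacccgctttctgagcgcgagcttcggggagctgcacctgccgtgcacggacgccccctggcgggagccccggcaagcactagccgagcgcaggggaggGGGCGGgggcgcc
The motifs searched on both strands were the GC box (GGGCGG), the TATA box (TATAAA), the cAMP response element (TGACGTCA) and the left (TTCAGCACC) and right (GGACAGC) arms of the RE1 element, the site of the repressor of neuronal genes REST. Over windows of 250 bases before the start, the GC box was in 52.8% of the 36 windows and in 32.7% of all 32851 windows. Slc17a7 held 3 and Syngr1 held 1. Among the 36 windows, Syn1 was the only one with the cAMP response element and the only one with the left RE1 arm. These letters were in 1.55% and 0.301% of all windows. The right RE1 arm was in 1 of the 36 windows, that of Gad2, and in 5.28% of all windows, and the TATA box was in 8.33% against 12.4%. The median GC content was 58.8% in the 36 windows and 52.4% in all. A match is a description of the letters, and its use in these cells was not tested.

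The SNARE and fusion proteins, 8 of the 34, included 0 called genes, and their median was 0.37 on the log2 scale, with 6 of 8 above 0. Snap25, the plasma membrane SNARE of the terminal, on chromosome 2 at 136713439 to 136782428, was on the other side. It was at 5522, 9713 and 8384 CPM in CFD input and at 2574, 5615 and 4710.4 CPM in CFD IP. In HFD it was at 8301, 8152 and 5105 CPM in input and at 6928, 6396 and 5764 CPM in IP. Its IP over input ratio lay below 0 in 5 of 6 animals and its log2 value was -0.52 (SE 0.19, edgeR unadjusted p = 0.0126, adjusted p = 0.204). With no filter it was called lower (edgeR adjusted p = 0.0641). As a share of the counts of the 34 genes, which no scaling can change, Snap25 took 27.8% to 42.1% in the inputs and 11.9% to 26.9% in the IPs, without overlap. The share was lower in IP in 6 of 6 animals, by 0.75 ± 0.38 on the log2 scale (SD, n = 6). It was looked at after its values were seen, so it is given with no test, and it also moves with the other genes of the sum. In animal 676 the share was lower in IP while the ratio of Snap25 itself was 0.17. Complexins, which clamp and then speed fusion, had log2 fold changes of 0.54 for Cplx2 and 0.56 for Cplx1, both above 0 in 6 of 6 animals, with edgeR adjusted p-values of 0.166 and 0.296 and values of -0.09 and -0.08 without a scaling factor. Nsf was also above 0 in 6 of 6 animals, at 0.39 (SE 0.16, edgeR adjusted p = 0.281), with no IP library among the inputs, and at -0.24 without a scaling factor. The vesicle SNAREs Vamp1 and Vamp2 had 0.55 and 0.28 and the syntaxin Stx1a 0.34, with edgeR adjusted p-values from 0.493 to 0.838. All 3 were below 0 without a scaling factor, from -0.37 to -0.13.

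Of the 5 synaptotagmins, Syt7 was called, and the median was 0.35. Syt1, the fast calcium sensor of forebrain synapses, on chromosome 10 at 108497650 to 109010980, was at 996, 1337 and 1021 CPM in CFD input and at 923, 1468 and 1256 CPM in CFD IP. In HFD it was at 725, 852 and 1075 CPM in input and at 944, 1635 and 1171 CPM in IP. The groups overlapped, and the log2 value was 0.31 (SE 0.19, edgeR adjusted p = 0.513), or -0.30 without a scaling factor. Syt11, a synaptotagmin that does not bind calcium, had 0.55 (edgeR adjusted p = 0.197) and was above 0 in 6 of 6 animals, or -0.09 without a scaling factor. Syt4, a synaptotagmin of dense-core vesicles, had 0.35, or -0.28 without a scaling factor. Syt2, the sensor of fast hindbrain synapses, was low and scattered, from 2.32 to 65.3 CPM over the 12 libraries.

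The vesicle membrane and surface proteins had the most calls, 3 of 10 (Syn1, Syn3 and Syngr1), and all 10 had a log2 fold change above 0, with a median of 0.60. Without a scaling factor the members of this group besides the 3 called had values from -0.64 for Sncb to 0.14 for Syngr3. Syp was at 0.71 on the log2 scale (SE 0.21, edgeR adjusted p = 0.114), above 0 in 5 of 6 animals. Rab3a was above 0 in 6 of 6, at 0.50 (edgeR adjusted p = 0.259), or -0.13 without a scaling factor. Syngr3, the relative of Syngr1, had 0.71 and Sncb 0.02, with edgeR adjusted p-values of 0.455 and 0.995. The transporter-like proteins Sv2a and Sv2b had 0.34 and 0.14, with 4 and 5 of 6 animals above 0, and values of -0.31 and -0.46 without a scaling factor.

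At the active zone, 1 of 4 genes was called (Bsn) and the median was 0.61. Pclo, the relative of Bassoon, was above 0 in 6 of 6 animals at 0.58 (SE 0.20, edgeR adjusted p = 0.168), or -0.03 without a scaling factor. The priming factor Unc13a had 0.64 and the scaffold Rims1 had 0.40, with 5 of 6 animals above 0 for each, and values of 0.03 and -0.25 without a scaling factor. Summed over the 4 genes, the level was 1381 to 2879 CPM in input and 3440 to 5441 CPM in IP, without overlap.

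The genes of transmitter loading and synthesis split. Slc17a7 was called higher, while 3 of the 5 had a log2 fold change below 0. Gad2, which makes the GABA of the terminal, on chromosome 2 at 22621015 to 22693877, was at 934, 948 and 708 CPM in CFD input and at 306, 393 and 605 CPM in CFD IP. In HFD it was at 1054, 837 and 396 CPM in input and at 658, 452 and 361 CPM in IP. It was below 0 in 6 of 6 animals, the only one of the 34 of which this was so, against 4.15% of all genes tested. It was at -0.81 on the log2 scale (SE 0.24, edgeR adjusted p = 0.107). Gad2 was called lower with DESeq2 (adjusted p = 0.0536), edgeR's likelihood ratio test (adjusted p = 0.0893) and no filter (edgeR adjusted p = 0.0169). Slc32a1, which loads GABA into vesicles, had the largest log2 fold change of the 34 at 1.37 (SE 0.45), with an edgeR adjusted p of 0.147. It was called with DESeq2 (adjusted p = 0.048), edgeR's likelihood ratio test (adjusted p = 0.0789) and no filter (adjusted p = 0.0272). It had from 14.1 to 153 CPM over the 12 libraries and was above 0 in 5 of 6 animals. Gad1 was at -0.17 and Slc17a6 at -0.45. The 2 genes of endocytosis, Dnm1 and Amph, had 0.40 and 0.43, with 4 and 5 of 6 animals above 0, and values of -0.21 and -0.16 without a scaling factor.

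Over the 34 genes, 12 were higher in IP in 6 of 6 animals, against 4.09% of all genes tested. They were Syt7, Syt11, Syn1, Syn3, Cplx1, Cplx2, Rab3a, Bsn, Pclo, Slc17a7, Nsf and Syngr1. Within an animal, 22 to 29 of the 34 genes had a ratio above 0. The median ratio of the 34 was 0.21, 0.35 and 0.45 in animals 489, 555 and 556 and 0.54, 0.59 and 0.25 in animals 516, 517 and 676. The medians of all genes in the same animals ran from -0.25 to 0. The sum of the 34 genes, of which Snap25 made up the shares above, was 22536 ± 2734 CPM in CFD input, 23821 ± 1941 in CFD IP, 19164 ± 1277 in HFD input and 24657 ± 3251 in HFD IP (SD, n = 3 each). With no scaling factor the order of the means turned in both diets, with 26427 CPM in input and 15780 CPM in IP in CFD and with 25124 CPM and 24010 CPM in HFD.

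**Figure D3:**
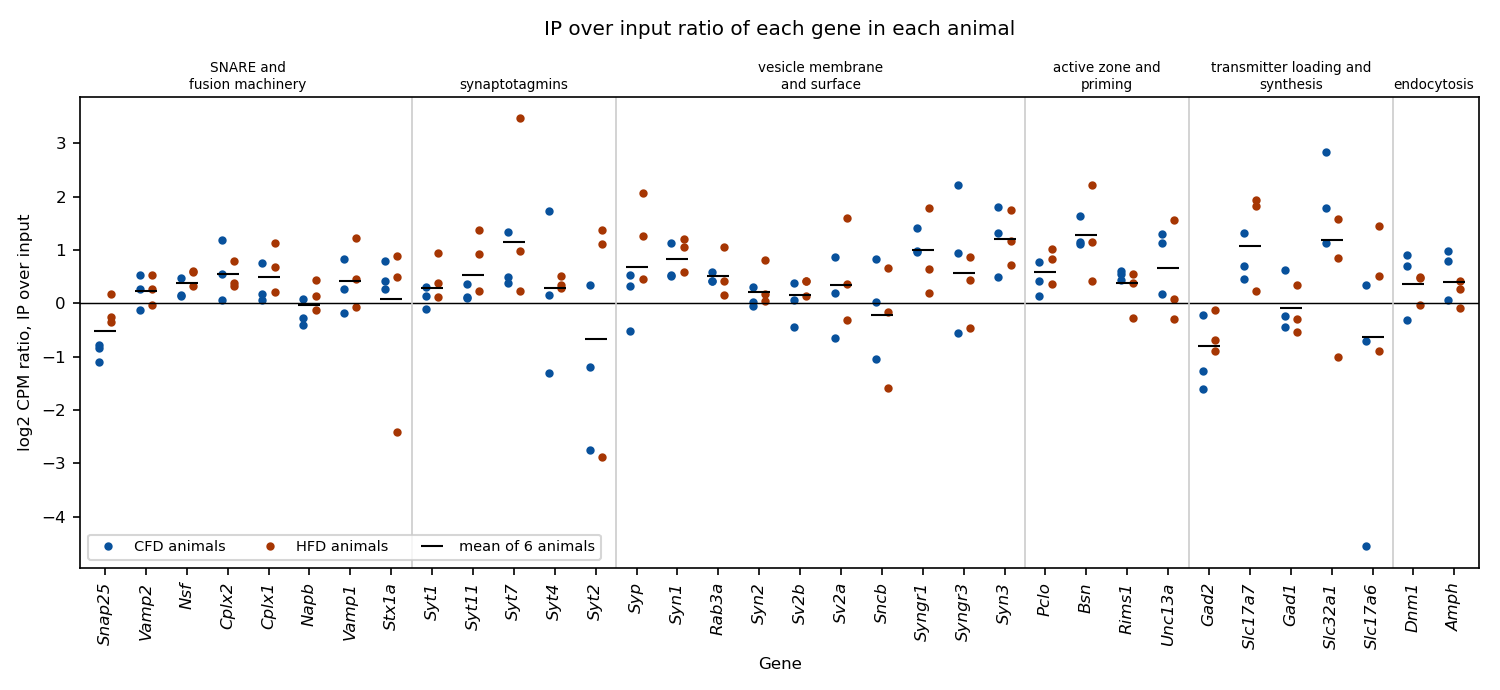
log2 ratio of CPM in IP over input for each of the 34 genes in each of the 6 animals, grouped by role. Points are animals, coloured by diet, and black bars are means of the 6 animals. Bsn, Syn1 and Syn3 lie above 0 in every animal and Gad2 below 0 in every animal, on the TMM scale.

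Each diet was also taken alone. In CFD 0 of the 34 genes had an edgeR adjusted p under 0.1, against 0.188% of all genes, and 8 were higher and 2 lower at an unadjusted p under 0.05, against 11.8%. The median was 0.34, with 27 of 34 above 0. Bsn came closest, at 1.32 (SE 0.30, edgeR adjusted p = 0.102), followed by Syn3 at 1.27 (SE 0.36, adjusted p = 0.206). Below 0, Snap25 had -0.87 (SE 0.27, adjusted p = 0.258) and Gad2 -0.99 (SE 0.34, adjusted p = 0.274). With the replicate block 3 were called in CFD, Bsn higher and Snap25 and Gad2 lower, where 139 of all 14354 genes were called. DESeq2 called 5, all higher, and 816 of all genes. Without a scaling factor Gad2, Napb and Snap25 were called lower, among 1014 calls over all genes.

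In HFD alone 0 of the 34 genes were called by edgeR, against 0.0139% of all genes, and 11 were higher and 0 lower at an unadjusted p under 0.05, against 6.51%. The median was 0.49, with 30 of 34 above 0. Syp had 1.33 (SE 0.31, edgeR adjusted p = 0.356), place 10 among all genes by p, and Bsn 1.19 (SE 0.30, adjusted p = 0.478). Syp was at 376, 370.4 and 522 CPM in HFD input and at 1584, 887 and 719 CPM in HFD IP, without overlap. In HFD 13 of the 34 genes had IP above input without overlap, and the share of all genes was not counted. Gad2 had -0.64 and Gad1 -0.25 in HFD, with edgeR adjusted p-values of 0.809 and 0.974. With the replicate block Bsn, Slc17a7 and Syp were called higher in HFD, among 24 calls over all genes. DESeq2 called 8, all higher, and 160 of all genes.

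Other gene lists show where the 34 genes stood, between IP and input over both diets. Of 56 other presynaptic genes 55 were tested, and 7 rose and 1 fell, with a median log2 fold change of 0.15. Among those that rose were Syt3, Ppfia3, Slc6a17, Nrxn2, Scamp5 and Synj1. The calcium channel subunit Cacnb4 fell, at -0.94 (SE 0.26, edgeR adjusted p = 0.0818). The partner of Bassoon and Rims at the active zone, liprin-α3 (Ppfia3), had 1.37 (SE 0.31, adjusted p = 0.0419), and the vesicular transporter Slc6a17 had 1.14 (SE 0.23, adjusted p = 0.0255). Of 10 postsynaptic genes 5 rose and 0 fell, with a median of 0.81. They were Shank1, Shank2, Shank3, Camk2a and Grin1, and the summed level of the 10 was higher in IP in 6 of 6 animals.

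Markers of cells moved with these results as follows, and their part in them was not tested. Of 7 genes of the neuron cell body 1 rose (Elavl3). At an unadjusted p under 0.05, 2 were lower, Meg3 at -1.14 (edgeR adjusted p = 0.129) and Map2 at -0.63 (edgeR adjusted p = 0.173). The median was 0.04, and the summed level was above 0 in 1 of 6 animals, with 2765 to 4090.4 CPM in IP against 3024 to 4871 CPM in input. Of 6 axon cytoskeleton genes 0 were called by edgeR, with 2 higher at an unadjusted p under 0.05, a median of 0.25 and a summed level above 0 in 6 of 6 animals. Of 8 oligodendrocyte genes Mbp rose and Ermn fell, with a median of 0.52 and 3026 to 7574 CPM in IP against 3058 to 5222 CPM in input. Of 6 astrocyte genes 0 were called and the median was 0.23, and the summed level was above 0 in 6 of 6 animals, with 700.0 to 908 CPM in IP against 583 to 816 CPM in input. Endothelial, microglia and pericyte lists had 0 called genes of 9, 6 and 4 tested, and 0 at an unadjusted p under 0.05, with medians of -0.00, 0.05 and -0.85. With no scaling factor the median of all genes was at -0.64, and these lists were not fitted again under that setting.

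**Figure D4:**
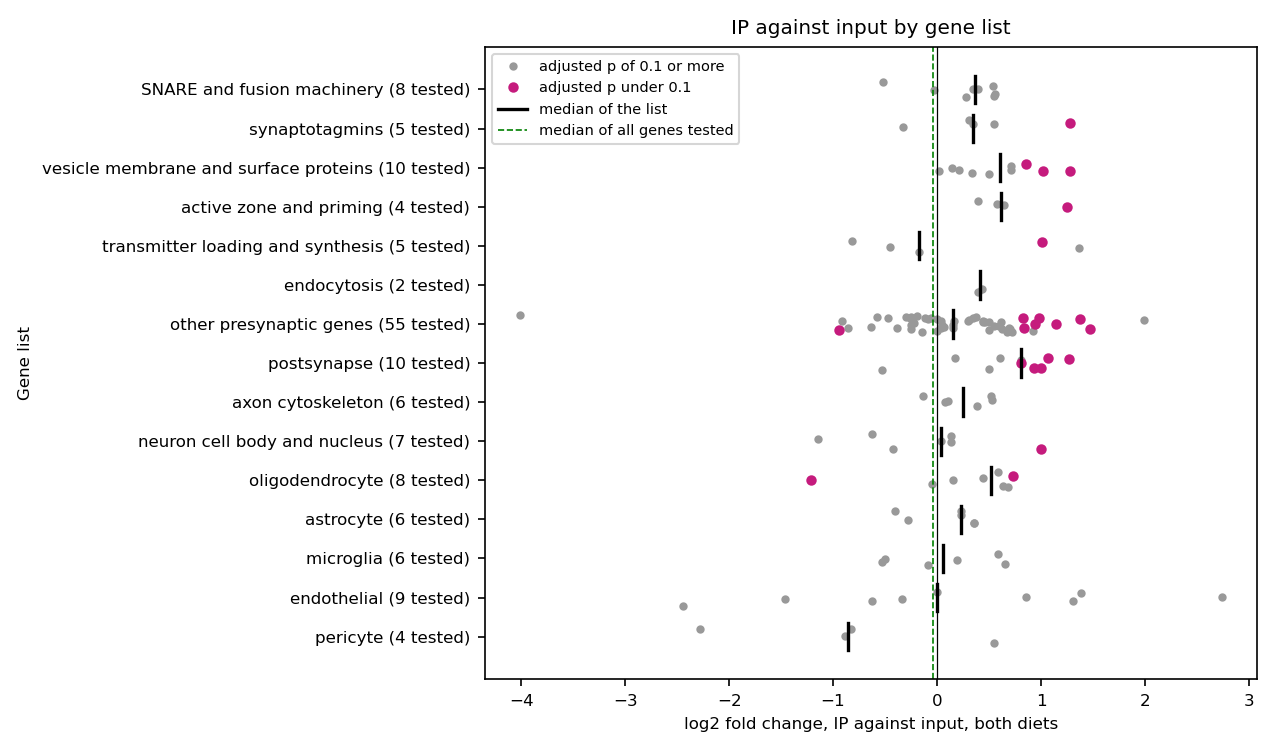
log2 fold change between IP and input over both diets for every tested gene of 15 lists, on the TMM scale. Each point is a gene, filled in magenta where the edgeR adjusted p was under 0.1, and black bars are medians of the lists. The medians of postsynapse (0.81), active zone (0.61) and vesicle membrane genes (0.60) lie furthest to the right of the median of all genes (-0.03).

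Diet was compared in the input to ask how the whole white matter differed. With edgeR 0 of the 34 genes were called between HFD and CFD input, against 0% of all genes. At an unadjusted p under 0.05, 1 of 34 was found, against 2.03% of all genes. DESeq2 also called 0 of the 34, and 31 of all 14354 genes. Of the 34 log2 fold changes 4 lay above 0, with a median of -0.27 against -0.004 over all genes. A median below 0 was not particular to the 34. It was -0.29 for postsynaptic, -0.32 for axon cytoskeleton and -0.40 for astrocyte genes. Other presynaptic, oligodendrocyte and neuron cell body genes had -0.14, -0.17 and -0.10. The endothelial, microglia and pericyte lists lay above 0, at 1.55, 0.002 and 1.20. Without a scaling factor 10 of 34 lay above 0, and 4 lay above the median of all genes, which was then 0.15. The median of the 34 ranged from -0.30 to -0.20 over fits that left out 1 animal. Syp had the smallest p, at -0.99 (SE 0.30, edgeR unadjusted p = 0.00371, adjusted p = 1). Its CFD inputs held 1099.8, 722 and 694 CPM, all above the HFD values given above. Rab3a had -0.53 (SE 0.28, edgeR adjusted p = 1), with 246, 269 and 279 CPM in CFD and 223, 142 and 186 CPM in HFD. The groups did not overlap for 6 genes, all lower in HFD (Syp, Rab3a, Syt2, Cplx1, Syn1 and Syn3), against 4.33% of all genes lower and 6.05% higher. Sncb, β-synuclein, and Slc32a1 were the members furthest above 0, at 0.54 and 0.49, both at an edgeR adjusted p of 1. The summed level was 19881, 25342 and 22387 CPM in CFD input and 19737, 20053 and 17701 CPM in HFD input, so that animal 489 lay below animal 517.

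Diet was then compared within the IP, the comparison the study was built on. With edgeR 0 of the 34 genes were called, against 0.0557% of all genes, and 0 had an unadjusted p under 0.05, against 10.9%. DESeq2 called 0 of the 34, and 770 of all 14354 genes. The median was -0.09, with 14 of 34 above 0, against 0.03 over all genes tested. Without a scaling factor it was 0.45 with 31 above 0. The median of all genes was then 0.61, and 13 of 34 lay above it. Snap25 was called higher in HFD under that setting (edgeR adjusted p = 0.0496), among 244 calls over all genes. With no scaling factor and without Rn45s and Lars2, the median of the 34 was -0.03, and 0 of them were called. On the TMM scale Snap25 had 0.57 (SE 0.27, edgeR unadjusted p = 0.0502, adjusted p = 0.458). Its HFD IP libraries lay above the CFD ones, against 5.94% of all genes with such an order. Syt11 was at 0.37 (SE 0.28, adjusted p = 0.632). Bsn had -0.55 (SE 0.29, edgeR adjusted p = 0.489). Rab3a had -0.48 (SE 0.28, adjusted p = 0.523), at 371, 357 and 374 CPM in CFD and 247, 294 and 249 CPM in HFD, without overlap, against 4.66% of all genes lower. Rab3a turned to 0.09 with no scaling factor.

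The difference of the differences, or interaction, was fitted to see whether IP over input differed between the diets. With edgeR 0 of the 34 genes were called, against 0% of all genes, and 1 had an unadjusted p under 0.05, against 5.36%. DESeq2 called 0 of the 34, and 121 of all 14354 genes. The gene with an unadjusted p under 0.05 was Syp, with an interaction of 1.24 (SE 0.43, edgeR unadjusted p = 0.00821, adjusted p = 0.829). The CFD ratios of Syp were -0.53, 0.53 and 0.32 and its HFD ratios 2.07, 1.26 and 0.46, and the lowest HFD ratio lay within the CFD range. Snap25 had 0.70 (SE 0.39, adjusted p = 0.896), with ratios of -1.10, -0.79 and -0.83 in CFD and -0.26, -0.35 and 0.17 in HFD. On the other side Slc32a1 had -1.08 (SE 0.88, adjusted p = 0.922) and Amph -0.39 (SE 0.49, adjusted p = 0.967), and Amph turned to 0.04 without a scaling factor. Of the 34 genes, 22 had an interaction above 0, or 64.7%, against 52.2% of all genes tested, and the medians were 0.22 and 0.06. The 2 medians were 0.62 and 0.47 with no scaling factor.

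**Figure D5:**
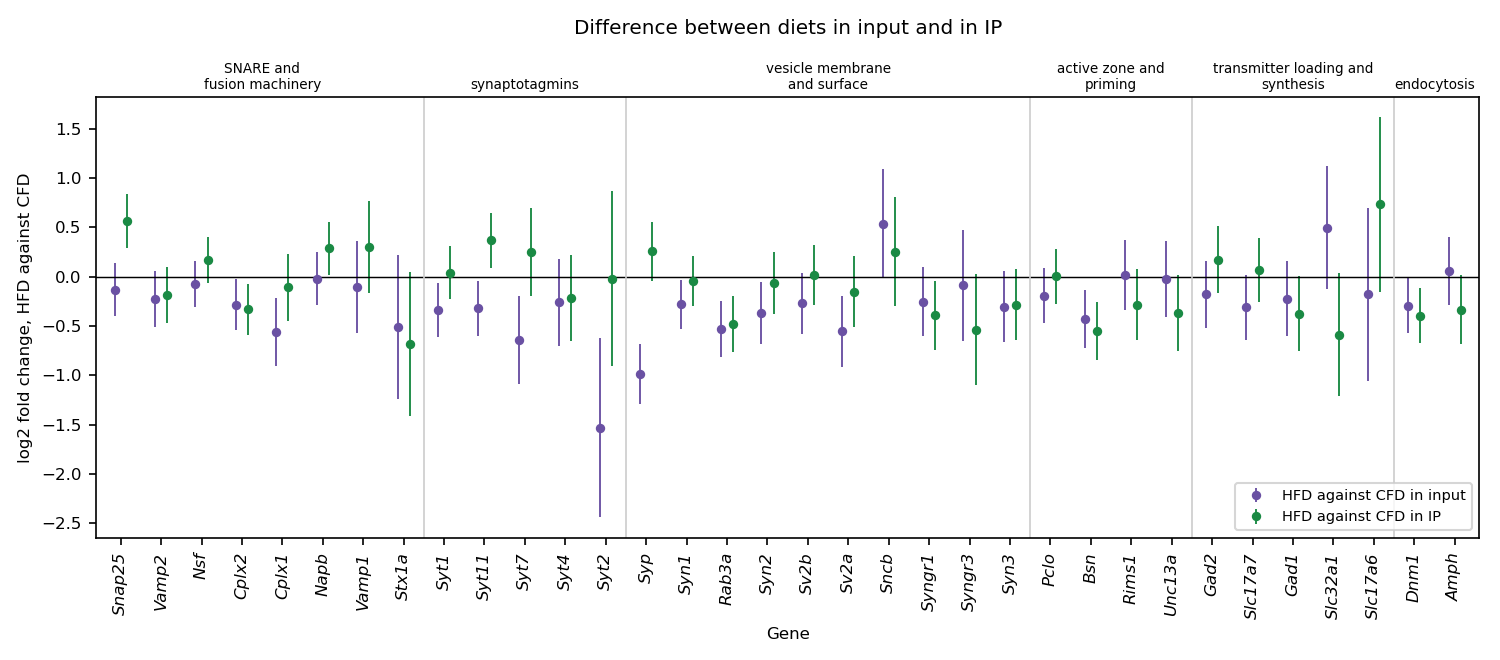
log2 fold change of HFD against CFD in input (purple) and in IP (green) for each of the 34 genes, with bars of 1 SE, on the TMM scale. In input 4 of 34 points lie above 0, with Syp at -0.99, and in IP 14 of 34 lie above 0. None of the points had an edgeR adjusted p under 0.1.

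Gene length and shared bases were looked at as properties that the choice of genes did not use. Between IP and input over both diets, Spearman's rho of the log2 fold change with gene length was 0.15 over the 34 genes and 0.173 over all genes tested. These are descriptions across genes, which share libraries and are not independent. The 22 genes under 4000 bases had a median of 0.39 and the 12 longer ones 0.56, against -0.12 and 0.14 over all genes of these lengths. In the RefSeq annotation 8 of the 34 genes share exon bases with another gene, most of all Napb, with 38.0% of its exon bases. How reads on such bases were counted is not given in the sources used here. Napb, whose log2 fold change was -0.03, is uncertain for this reason.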

How the data were processed

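RNA of 12 libraries from 6 animals was analysed. The authors aligned reads with STAR to mm10 and counted them per gene with HTSeq, per the submitters' processing notes, with no versions or strand setting given in the sources used here. The labels and the methods name different library kits. The deposited table holds raw counts and FPKM values by the authors. The counts were tested, and the FPKM values gave only the gene lengths used for levels per kb. The authors' own fold changes, p-values and normalised signal were not used.

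Genes were filtered with filterByExpr (minimum count 10, minimum total 15), scaled by TMM and fitted with 4 group means by edgeR 4.0.16 in R 4.3.3 (limma 3.58.1). The quasi-likelihood test with Benjamini-Hochberg adjustment over the 14354 genes tested was called at an adjusted p under 0.1, in 6 comparisons. CPM used TMM-scaled totals, and ratios per animal a prior count of 2. The scripts were tested on simulated data. Totals of 19567186 to 33660708 counts leave the spread between animals as the main limit (common biological coefficient of variation 101% over all genes, 27.2% to 75.0% for the 34). The p-values set the differences against the spread between the libraries of a group, which come from different animals. Only the replicate block used the pairing of input and IP by animal.

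Full values are given for Snap25, Syt1 and Syn1, for every gene called, and for the 2 of smallest p on either side of 0 in each comparison. The members and lists were chosen with earlier results of these data known. Input and IP pair by animal, from the labels, and the deviations of same-animal libraries correlated at 0.0064 to 0.19, against a median of -0.018 between animals. Alternatives were the replicate block, DESeq2 1.42.0, RLE scaling, an adjusted p under 0.05, no filter, totals without Rn45s and Lars2, edgeR's likelihood ratio test, only the libraries compared, a prior count of 0.5, no scaling factor, and each animal left out.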

Additional observations from a re-analysis of the deposited data

How the results depend on the processing

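RLE scaling and leaving out Rn45s and Lars2 kept the side of the threshold of every named gene. Over both diets, the genes called were 11 with no filter (730 of all 18302 genes), 10 with DESeq2 (996 of 14354) and 11 with the replicate block (451 of 14354). They were 0 to 10 when 1 animal was left out (7 to 430 over all genes). In CFD they were 5 with no filter (312 of 18302), 1 with the likelihood ratio test (277 of 14354), 5 with DESeq2 (816 of 14354) and 3 with no scaling factor (1014 of 14354). They were 1 with only the libraries compared (14 of 12465), 3 with the replicate block (139 of 14354) and 0 to 1 with 1 animal left out (2 to 52 over all genes). In HFD they were 4 with no filter (79 of 18302), 8 with DESeq2 (160 of 14354), 3 with the replicate block (24 of 14354) and 0 to 4 with 1 animal left out (0 to 35 over all genes). The replicate block changed no call in the remaining comparisons. The settings with no scaling factor were chosen after seeing the data, except for the summed CPM. With no scaling factor the median log2 fold change of the 34 was -0.18 over both diets, -0.49 in CFD and 0.090 in HFD. It was 0.45 between the IPs (where 1 of the 34 and 244 of all genes were called), -0.12 between the inputs and 0.62 for the interaction. Over all genes tested the medians were -0.64, -0.84, -0.41, 0.61, 0.15 and 0.47 in the same order. With no scaling factor and without Rn45s and Lars2 the median of the 34 was 0.20, 0.12 and 0.26 over both diets, in CFD and in HFD. It was -0.03 between the IPs and -0.16 between the inputs. Between the inputs it ran from -0.30 to -0.20 with 1 animal left out. With no scaling factor Syt1 turned to -0.30 over both diets, Rab3a to 0.090 between the IPs and Amph to 0.040 for the interaction. With no scaling factor the mean summed CPM was 26427, 15780, 25124 and 24010 in CFD input, CFD IP, HFD input and HFD IP, so that IP lay below input in both diets. With TMM scaling and without Rn45s and Lars2 it was 28705, 30440, 24340 and 30991 in CFD input, CFD IP, HFD input and HFD IP. As an unscaled share of the counts besides Rn45s and Lars2, the 34 genes held 2.49%, 2.89% and 2.72% in CFD IP. In CFD input they held 2.78%, 3.12% and 3.02%. In HFD the shares were 2.99%, 2.93% and 2.94% in IP against 2.79%, 2.81% and 2.60% in input. The cause was not tested. The biological coefficient of variation of the 34 genes was 27.2% to 75.0%, with 3 animals a group.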
